A study of Mus musculus with 13 samples.

Results

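The genes described here build the cornified envelope and the desmosome, and their transcripts were measured in lower incisors of VDRgem, VDR-null and control mice. Members were taken by symbol from the count table: the small proline-rich (Sprr), late cornified envelope (Lce), desmoglein (Dsg), desmocollin (Dsc), plakophilin (Pkp) and transglutaminase (Tgm) families, and Lor, Flg, Flg2, Ivl, Evpl, Ppl, Dsp, Jup, Krtdap, Sbsn, Cnfn and Hrnr. Of 34709 genes, 62 were members after 1 pseudogene was left out. They comprised 9 small proline-rich proteins, 21 late cornified envelope proteins, 10 other envelope precursors and plakins, 7 transglutaminases, 9 desmosomal cadherins and 6 plaque proteins. RNA-seq was run on incisors of male mice at postnatal day 5, which were pulled and frozen, with 3 VDRgem, 5 VDR-null and 5 control libraries. VDRgem mice are known to carry a vitamin D receptor that answers synthetic gemini ligands but not the natural hormone. In VDR-null mice, as is known, no working receptor is made, and the control libraries are described as wild type. Strain background, littermates and the exact alleles were not given in the sources used here. Each incisor is called independent, but no animal is named for any of them, and p-values therefore measure only how far these incisors spread.

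The cornified envelope forms at the end of keratinocyte differentiation, when transglutaminases cross-link loricrin, small proline-rich and late envelope proteins onto a scaffold that contains envoplakin, periplakin and involucrin. Desmosomes join neighbouring epithelial cells through desmogleins and desmocollins, whose tails bind plakoglobin and plakophilins, and desmoplakin ties this plaque to keratin filaments. In a tooth, the layers of the enamel organ are held together by desmosomes, whereas cornification is known from skin and from the oral mucosa that surrounds the tooth. The vitamin D receptor is known to take part in keratinocyte differentiation in skin.

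Most of the cornified members are neighbours in the genome. On chromosome 3 of the mm10 assembly, 35 members lay between positions 92080271 and 93333570, the epidermal differentiation complex. Promoters of 46 members, from 250 bases before to 50 bases after the annotated start, were available from RefSeq on GRCm38.p6. The promoters of Sprr1a, Lor and Krtdap are shown because these envelope genes share letters that most members lack, and those of Tgm3 and Tgm1 because Tgm3 was called in VDRgem against control, whereas Tgm1 passed in none of the comparisons. Capitals mark the letters TGAGTCA, a site of the Jun and Fos factor AP-1, and TATAAA, the TATA box.

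Sprr1a, chr3:92485832-92486131, minus strand: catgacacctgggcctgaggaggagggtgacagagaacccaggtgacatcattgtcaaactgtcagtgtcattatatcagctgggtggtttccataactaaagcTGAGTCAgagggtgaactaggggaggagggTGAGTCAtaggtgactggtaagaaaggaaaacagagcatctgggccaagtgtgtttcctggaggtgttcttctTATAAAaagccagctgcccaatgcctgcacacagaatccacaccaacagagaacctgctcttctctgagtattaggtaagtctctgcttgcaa

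Lor, chr3:92083093-92083392, minus strand: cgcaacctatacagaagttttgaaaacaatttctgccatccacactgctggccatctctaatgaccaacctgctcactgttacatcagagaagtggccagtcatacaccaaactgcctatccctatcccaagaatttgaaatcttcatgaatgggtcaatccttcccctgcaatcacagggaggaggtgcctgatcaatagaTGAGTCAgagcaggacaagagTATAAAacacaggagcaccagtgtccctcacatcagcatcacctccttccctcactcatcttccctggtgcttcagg

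Krtdap, chr7:30787655-30787954, plus strand: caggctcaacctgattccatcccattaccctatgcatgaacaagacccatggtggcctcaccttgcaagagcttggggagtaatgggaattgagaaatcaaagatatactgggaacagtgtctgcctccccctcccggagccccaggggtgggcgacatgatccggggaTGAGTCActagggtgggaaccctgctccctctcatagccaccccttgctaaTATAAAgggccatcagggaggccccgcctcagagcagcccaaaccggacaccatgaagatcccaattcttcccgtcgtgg

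Tgm3, chr2:130012090-130012389, plus strand: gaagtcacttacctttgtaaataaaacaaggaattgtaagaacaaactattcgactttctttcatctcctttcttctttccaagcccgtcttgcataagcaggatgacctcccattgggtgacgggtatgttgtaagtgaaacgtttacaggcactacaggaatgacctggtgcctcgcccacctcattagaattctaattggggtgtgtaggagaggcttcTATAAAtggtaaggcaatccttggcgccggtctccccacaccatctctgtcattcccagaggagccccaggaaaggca

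Tgm1, chr14:55713443-55713742, minus strand: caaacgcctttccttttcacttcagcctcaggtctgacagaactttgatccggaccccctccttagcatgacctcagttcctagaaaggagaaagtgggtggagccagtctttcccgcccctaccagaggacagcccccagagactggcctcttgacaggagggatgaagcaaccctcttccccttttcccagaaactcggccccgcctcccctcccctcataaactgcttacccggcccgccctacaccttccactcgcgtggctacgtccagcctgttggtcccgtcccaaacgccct

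In Sprr1a the AP-1 letters began 146 and 116 bases before the start and TATAAA began 43 bases before it. In Lor they began 48 and 27 bases before the start, and in Krtdap 81 and 30. Tgm3 held TATAAA alone, 28 bases before its start, and Tgm1 held neither. Over all members with a promoter, TGANTCA on either strand was found in 13 of 46 (28.3%), against 2144 of 27025 RefSeq promoters of the same length (7.93%). The matches fell in 7 of 9 Sprr promoters and 6 of 8 promoters of other envelope precursors and plakins, and in 0 of 20 Lce, 0 of 6 Tgm and 0 of 3 plaque promoters. TATAAA on either strand was found in 19 of 46 (41.3%), against 3827 of 27025 (14.2%), and in 8 of 9 Sprr promoters. The letters of these motifs cannot overlap each other. The vitamin D receptor motif, a direct repeat spaced by 3 bases, was in 0 of the 46 windows and in 9 of 27025 (0.0333%). These matches describe letters in short windows and say nothing of which factor was bound.

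Library totals ran from 48778971 to 87783466 counts in VDRgem, from 26145535 to 61762799 in VDR-null and from 20405188 to 66058759 in controls. Levels are CPM, counts scaled to a common library size by TMM. Vdr, the targeted gene, stood at 107 to 205 CPM in VDRgem, 203 to 281 CPM in the libraries labelled VDR-null and 142 to 180 CPM in controls, and since gene counts pool all exons, they do not check the labels. Ameloblast and odontoblast markers were high in every library, with summed levels of at least 14073 CPM for 7 ameloblast and dental epithelium genes and 55547 CPM for 5 odontoblast and papilla genes. The 12 markers of oral and skin keratinocytes summed to 17321, 4055 and 397 CPM in VDRgem 1, 2 and 3, to 70.4 to 176 CPM in VDR-null and to 77.4 to 605 CPM in controls, the highest of which was control 4. None of the 12 was at 0 in VDRgem, and at most 1 was at 0 in any other library. The 6 skeletal muscle markers summed to 23.2 to 223 CPM in VDRgem, 2.81 to 567 CPM in VDR-null and 4.58 to 23.3 CPM in controls. The VDRgem libraries thus stood apart from each other in keratinocyte transcripts, so calls made in VDRgem are also given without VDRgem 1.

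In control incisors the desmosome and transglutaminase 1 made up most of the members' transcripts. A mean of at least 1 CPM was reached by 46 members in VDRgem, 17 in VDR-null and 21 in control. By library, 48, 31 and 22 members reached 1 CPM in VDRgem 1, 2 and 3, 17 to 19 in VDR-null and 16 to 23 in control. Set per kilobase of exon so that genes can be compared, the highest control level was that of Tgm1, which cross-links envelope proteins at the membrane, at 65.1 ± 10.9 CPM per kb (SD, n = 5). Dsp, at 29.8 ± 6.82, and Pkp1, at 29.8 ± 10.4 CPM per kb, came next and overlapped with each other and with Pkp4, at 29.2 ± 2.25 CPM per kb. Dsc3 followed at 24.4 ± 5.76, Jup at 17.7 ± 0.498, Tgm2 at 10.4 ± 0.498 and Dsg2 at 8.99 ± 1.55 CPM per kb. Among the 21, neighbours in this order overlapped between libraries except Tgm1 with Dsp and Jup with Tgm2. The cornified members stood lower and varied more, as with Sprr3 at 4.64 ± 7.23 and Lor at 1.51 ± 1.71 CPM per kb. Control 4 held the highest control level for 12 of the 14 Sprr, Lce and precursor members that were tested, and it was also the control with the highest keratinocyte markers. What part those cells had in these levels was not tested.

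**Figure D1:**
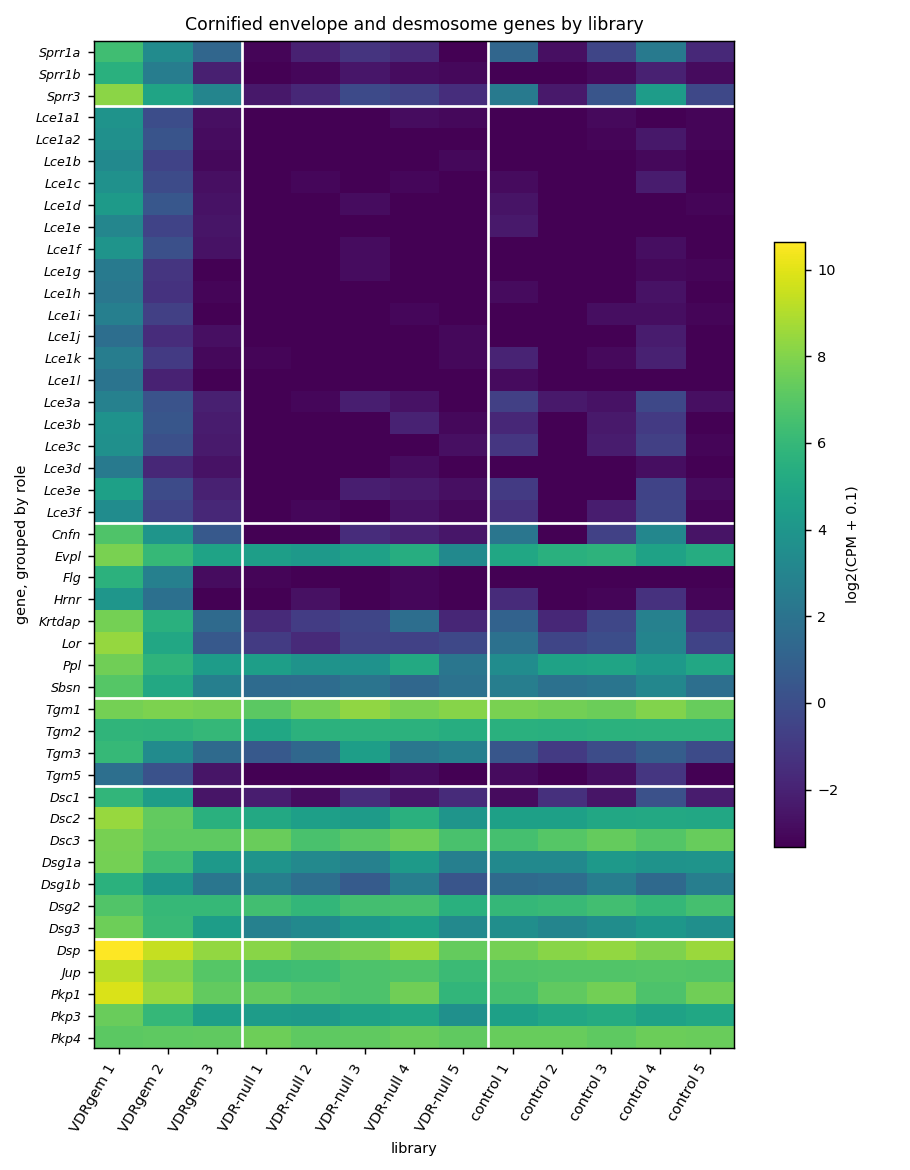
Level of the 46 members with a mean of at least 1 CPM in at least 1 group, as log2(CPM + 0.1), with genes in rows by role and the 13 libraries in columns (VDRgem, VDR-null, control). VDRgem 1 is the brightest column in the cornified roles, VDRgem 2 lies between it and the rest, and VDRgem 3 lies within the control range for 25 of the 32 tested members.

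A test was possible for 32 of the 62 members, those with enough counts in at least as many libraries as the smallest group holds. Of these, 25 had enough counts in 3 or more libraries outside VDRgem, and 7 passed only with the help of VDRgem libraries: Hrnr, Lce3a, Lce3b, Lce3c, Lce3e, Lce3f and Tgm5. Entry of those 7 depended on high VDRgem values, so their fitted values are given as descriptions, and counts and medians over the tested members are descriptions too. By role, 2 of 9 Sprr, 5 of 21 Lce, 7 of 10 precursors and plakins, 5 of 7 transglutaminases, 7 of 9 cadherins and 6 of 6 plaque genes were tested. Sprr2d and Sprr2f had no count in any library.

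VDRgem was compared with control to ask which transcripts differ when the receptor cannot answer its hormone. Members of the envelope and of the desmosome were higher in VDRgem, among them Lor and Sprr1a in the envelope, with log2 fold changes of 5.55 and 4.25, Dsg3 among the cadherins, with 2.94, and Dsp in the plaque, with 1.57. Lor averaged 127 ± 191 CPM in VDRgem (SD, n = 3), 0.493 ± 0.185 CPM in VDR-null (SD, n = 5) and 2.68 ± 3.05 CPM in control (SD, n = 5). Dsp averaged 859 ± 651 CPM in VDRgem, 253 ± 92.8 CPM in VDR-null and 288 ± 65.9 CPM in control, whereas Tgm1 averaged 223 ± 12.8, 232 ± 65.3 and 206 ± 34.5 CPM in those groups. In edgeR's quasi-likelihood test, adjusted by Benjamini-Hochberg over the whole table, 21 of the 32 tested members were higher and 0 lower at an adjusted p under 0.05, where 4.8% of all 17837 genes were higher and 3.82% lower. Among the 25 that met the filter outside VDRgem, 15 were higher, and with a filter on control libraries alone 14 of 24 were higher, with a median log2 fold change of 1.80. The median log2 fold change of all 32 was 2.95, against 0.00 for all genes tested. In bulk tissue, more cells of a type and more RNA per cell cannot be told apart. These calls rested on VDRgem 1: without it 0 of 32 passed, with 13 at an unadjusted p under 0.05 and a median of 1.22. In that fit 66 of 18137 genes were called in either direction, against 1537 of 17837 with all libraries. A count of 0 is near that share, so it does not single out the members. Without VDRgem 1 and 2 together, which leaves VDRgem 3 alone, the members' median was -0.047. Leaving out control 1, 2, 3 or 5 gave 10, 10, 12 and 11 higher members. In those fits 816 of 18077, 822 of 18042, 1016 of 17690 and 643 of 17696 genes were called in either direction. The 10 that passed whichever single control was left out were Dsc1, Dsc2, Dsg1a, Dsg3, Hrnr, Jup, Krtdap, Lor, Sbsn and Tgm3. Of these, Hrnr entered only with the help of VDRgem libraries, so its place there is a description. Without VDRgem 3, 49 members could be tested and 41 were higher, where 2021 of 18266 genes were called in either direction. Most members added there had enough counts in VDRgem 1 and 2 alone. Their entry depended on high VDRgem values, so that count is a description. DESeq2 called 18 higher and 0 lower, and limma-voom 3 higher and 0 lower. Of all 17837 genes, DESeq2 called 2320 and limma-voom 981 in either direction. The unadjusted rule stated with the series (absolute log2 fold change over 0.3 at p under 0.05) took 25 higher and 0 lower, where 19% of all genes passed it.

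The 3 VDRgem libraries differed widely from each other. Of the 32 tested members, 29 lay above every control in VDRgem 1, 25 in VDRgem 2 and 6 in VDRgem 3, and VDRgem 3 lay inside the control range for 25. For 26 members the level was highest in VDRgem 1 and lowest in VDRgem 3 of the 3, and VDRgem 1 was the highest of all 13 libraries for 28. The members' levels summed to 6814, 2649 and 1435 CPM in VDRgem 1, 2 and 3, to 971 to 1654 CPM in VDR-null and to 1145 to 1515 CPM in controls. After TMM scaling, the members whose 3 VDRgem libraries all lay above every control were Dsc2, Dsg1a, Dsg3, Jup, Tgm2 and Tgm3. That is 6 of 32, where 9.01% of all genes tested had that order. On library totals alone Dsg1a, Jup and Tgm2 lost it, and Dsc2, Dsg3 and Tgm3 kept it. The ratio of VDRgem 1 to VDRgem 2 had a median of 14.6 over the 17 Lce members with at least 10 counts in VDRgem 2, 7.78 over 4 Sprr, 4.60 over 9 precursors and plakins, 2.60 over 7 cadherins, 2.35 over 6 plaque genes and 1.36 over 5 transglutaminases. The keratinocyte markers, summed above, followed the same order over these 3 libraries, and their part in it was not tested.

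**Figure D2:**
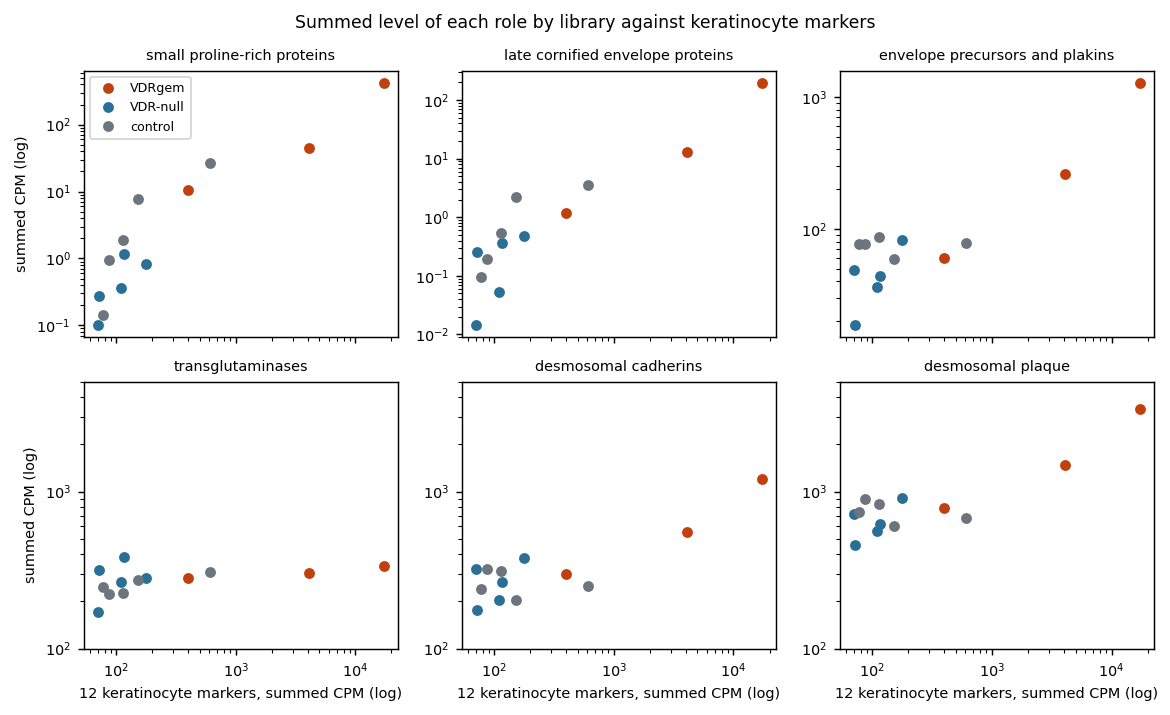
Summed CPM of each role (vertical log axis) against the summed CPM of the 12 oral and skin keratinocyte markers (horizontal log axis) in the 13 libraries, with 1 panel per role and colours for VDRgem, VDR-null and control. VDRgem 1 and 2 lie at the upper right in the cornified and desmosomal panels, while transglutaminase sums, led by Tgm1, differ little along the axis.

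Small proline-rich proteins bridge other proteins in the envelope, and both tested members rose in VDRgem. Sprr3 held 292, 27.8 and 8.20 CPM in VDRgem 1, 2 and 3, against 0.0859, 0.197, 0.767, 0.563 and 0.254 CPM in VDR-null 1 to 5 and 5.35, 0.0946, 1.18, 21.04 and 0.707 CPM in control 1 to 5. VDRgem 1 and 2 were above every other library, VDRgem 3 lay between control 1 and control 4, and the VDR-null libraries were all under 1 CPM. The log2 fold change of Sprr3 against control was 4.24 (SE 1.15, adjusted p = 0.0364). Sprr1a held 82.9, 10.6 and 2.33 CPM in VDRgem 1, 2 and 3, against 0.0143, 0.143, 0.323, 0.213 and 0 CPM in VDR-null 1 to 5 and 2.32, 0.0473, 0.650, 5.01 and 0.209 CPM in control 1 to 5. Its libraries took the same order in VDRgem, control 4 was above VDRgem 3, and no VDR-null library exceeded 0.323 CPM. For Sprr1a the log2 fold change was 4.25 (SE 1.06, adjusted p = 0.0276). Without VDRgem 1 these log2 fold changes were 1.63 and 1.94, with edgeR adjusted p of 0.506 and 0.368, and both calls were also lost without control 1, 2, 3 or 5, at adjusted p of up to 0.0791. Sprr1b held 46.6, 5.98 and 0.134 CPM in VDRgem 1, 2 and 3, against 0, 0.0179, 0.0808, 0.0388 and 0.0254 CPM in VDR-null 1 to 5 and 0, 0, 0.0302, 0.147 and 0.0321 CPM in control 1 to 5. Sprr1b was not tested, and its level was carried by VDRgem 1 and 2. Sprr2k reached 0.939, 0.220 and 0.0122 CPM in VDRgem 1, 2 and 3, was at 0 in all VDR-null libraries and was at 0.105 CPM in control 4 and 0 in the other controls. The VDRgem mean of Sprr2k was at least 31.4-fold higher than that of VDR-null, taking 3 counts over the group as the floor, and at least 9.34-fold higher without VDRgem 1. Sprr2 rows that are not in the table are not analysed here.

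**Figure D3:**
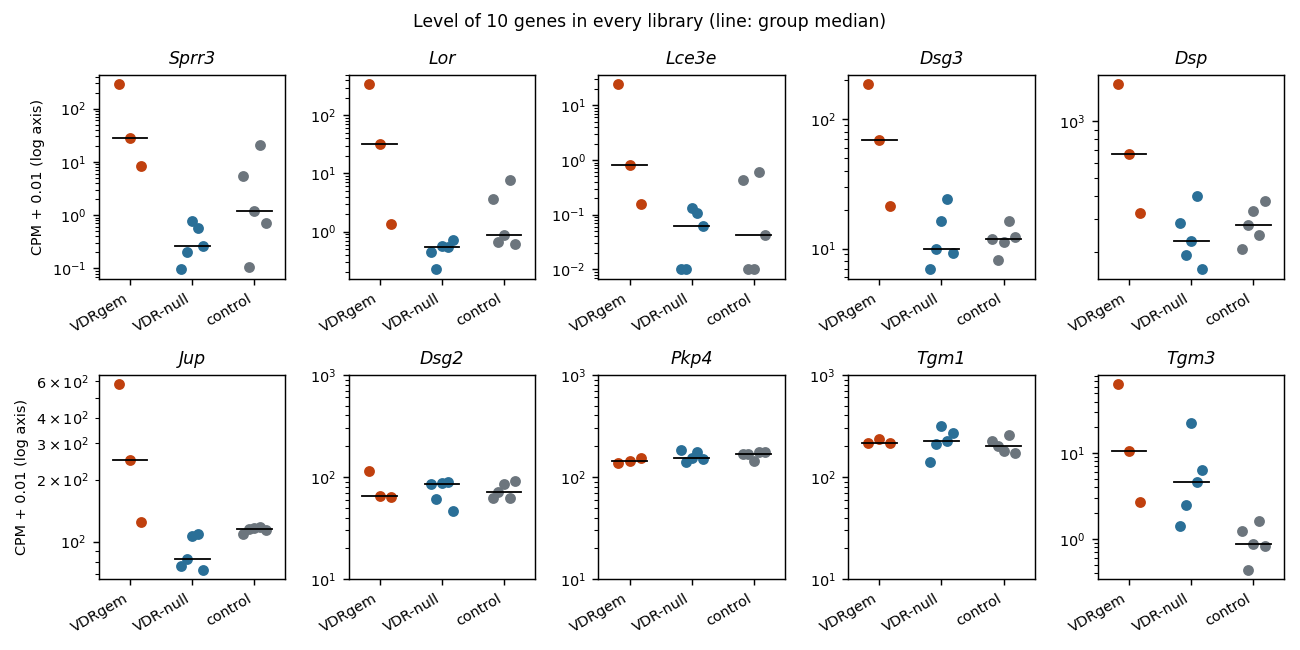
Level of 10 members in each library, as CPM + 0.01 on a log axis, with VDRgem, VDR-null and control from left to right and a line at each group's median. Sprr3, Lor and Lce3e spread over more than a decade within VDRgem, while Tgm1, Dsg2 and Pkp4 lie at a like height in all 3 groups.

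Late cornified envelope proteins enter the envelope at its last stage, and those tested were all of the Lce3 group, which in human is known from epithelial repair. Lce3e held 24.7, 0.814 and 0.146 CPM in VDRgem 1, 2 and 3, against 0, 0, 0.121, 0.0970 and 0.0509 CPM in VDR-null 1 to 5 and 0.419, 0, 0, 0.590 and 0.0321 CPM in control 1 to 5. Only VDRgem 1 stood well above the controls, with VDRgem 2 just above the highest of them. The fitted log2 fold changes against control were 5.37 (SE 1.34) for Lce3e, 5.08 (SE 1.23) for Lce3b, 4.48 (SE 1.14) for Lce3c, 4.14 (SE 1.10) for Lce3f and 3.26 (SE 1.01) for Lce3a. All 5 entered the test only with the help of VDRgem libraries, so these are descriptions. Without VDRgem 1 they were 1.06 for Lce3a and 0.84 to 2.11 for the other 4, which all missed the threshold. No Lce1 gene was tested, because too few libraries held enough counts. Lce1d held 19.4, 1.30 and 0.0610 CPM in VDRgem 1, 2 and 3, against 0, 0, 0.0404, 0 and 0 CPM in VDR-null 1 to 5 and 0.0645, 0, 0, 0 and 0.0161 CPM in control 1 to 5. Lce1f stood at 15.0, 0.968 and 0.0610 CPM and Lce1a1 at 14.1, 0.880 and 0.0488 CPM in VDRgem 1, 2 and 3, and neither exceeded 0.0421 CPM elsewhere. All 21 Lce genes summed to 197, 13.2 and 1.20 CPM in VDRgem 1, 2 and 3, to 0.0143 to 0.485 CPM in VDR-null and to 0.0946 to 3.58 CPM in controls. Some Lce genes are near copies: 48.0% of the 50-base windows of Lce3f and 19.9% of those of Lce1a1 occur in another gene, so reads may have been divided among them and their separate levels are uncertain.

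Among the envelope precursors and plakins, Lor, Krtdap and Sbsn rose in VDRgem. Lor encodes loricrin, the bulk protein of the epidermal envelope (ENSMUSG00000043165, chr3:92080271-92083142, minus strand). Lor held 347, 32.6 and 1.37 CPM in VDRgem 1, 2 and 3, against 0.430, 0.215, 0.565, 0.543 and 0.712 CPM in VDR-null 1 to 5 and 3.61, 0.663, 0.877, 7.65 and 0.611 CPM in control 1 to 5. VDRgem 1 and 2 were above every control, VDRgem 3 lay within the control range, and 4 of 5 VDR-null libraries were below every control. Krtdap held 212, 46.7 and 2.73 CPM in VDRgem 1, 2 and 3, against 0.215, 0.466, 0.646, 3.14 and 0.178 CPM in VDR-null 1 to 5 and 1.97, 0.189, 0.695, 6.83 and 0.305 CPM in control 1 to 5. Krtdap, which encodes a small secreted protein of the suprabasal epidermis, showed the same order in VDRgem. Sbsn held 125, 34.3 and 6.28 CPM in VDRgem 1, 2 and 3, against 2.89, 2.97, 3.997, 2.41 and 3.66 CPM in VDR-null 1 to 5 and 6.16, 3.60, 4.14, 8.55 and 3.33 CPM in control 1 to 5. Sbsn encodes suprabasin, a secreted protein of differentiating keratinocytes, and VDRgem 3 was inside its control range. The log2 fold changes against control were 5.55 (SE 1.16, adjusted p = 0.0155) for Lor, 5.41 (SE 1.20, adjusted p = 0.0184) for Krtdap and 3.42 (SE 0.61, adjusted p = 0.00982) for Sbsn. Hrnr, a filaggrin-like protein that entered only with the help of VDRgem libraries, was fitted at 5.90 (SE 1.29). Without VDRgem 1 these 4 were between 1.96 and 3.96, with edgeR adjusted p of 0.0734 to 0.183. Cnfn, which encodes cornifelin, held 111, 15.1 and 1.37 CPM in VDRgem 1, 2 and 3, at most 0.242 CPM in VDR-null and at most 8.70 CPM in control, and did not pass, at 3.95 (SE 1.23, adjusted p = 0.0615), or 1.57 without VDRgem 1.

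The plakins that form the scaffold of the envelope did not pass against control. Evpl held 224, 66.2 and 27.5 CPM in VDRgem 1, 2 and 3, against 22.2, 17.7, 25.1, 40.8 and 9.64 CPM in VDR-null 1 to 5 and 31.998, 45.5, 51.05, 26.7 and 39.7 CPM in control 1 to 5. Ppl held 195, 53.9 and 20.9 CPM in VDRgem 1, 2 and 3, against 22.6, 14.5, 13.6, 35.3 and 4.27 CPM in VDR-null 1 to 5 and 10.7, 26.3, 28.7, 18.7 and 32.7 CPM in control 1 to 5. Evpl and Ppl encode envoplakin and periplakin. VDRgem 1 and 2 were above every control for both, and VDR-null 4 was for Ppl. Their log2 fold changes were 1.44 (SE 0.52, adjusted p = 0.102) for Evpl and 1.94 (SE 0.63, adjusted p = 0.0723) for Ppl, and without VDRgem 1 they were 0.25 for Evpl and 0.66 for Ppl. Flg, which encodes filaggrin, was not tested because only 2 libraries had enough counts. Flg stood at 50.2, 6.58 and 0.0366 CPM in VDRgem 1, 2 and 3, at 0.0143 CPM in VDR-null 1, 0.0194 CPM in VDR-null 4 and 0 in the other VDR-null libraries, and at 0 in all 5 controls. Its VDRgem mean was at least 1439.7-fold higher than that of control, with 3 counts over the control group as the floor, and at least 251-fold higher without VDRgem 1. Ivl, which encodes involucrin, was near 0 throughout, with at most 0.0537 CPM in any library and 0 in every VDRgem library.

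**Figure D4:**
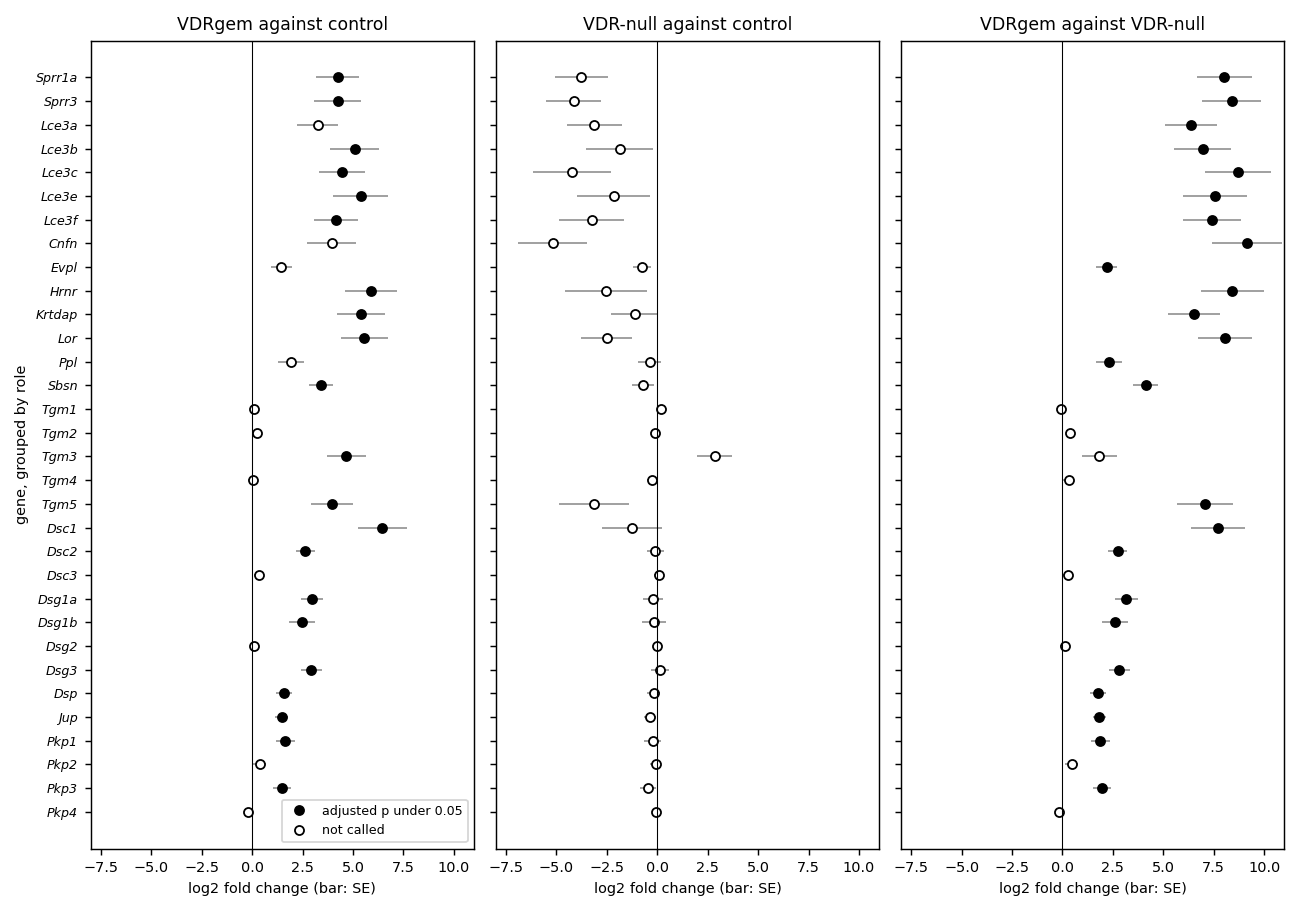
Log2 fold change with its SE for the 32 tested members in 3 comparisons (VDRgem against control, VDR-null against control, VDRgem against VDR-null), ordered by role, where filled points passed an edgeR adjusted p of 0.05. Filled points are all positive, 21 in VDRgem against control, 0 in VDR-null against control and 24 in VDRgem against VDR-null, and Tgm1, Dsg2, Dsc3 and Pkp4 lie near 0.

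Transglutaminases behaved unlike each other. Tgm1 held 213, 237 and 217 CPM in VDRgem 1, 2 and 3, against 139, 211, 312, 227 and 270.5 CPM in VDR-null 1 to 5 and 225, 202, 178, 255 and 170.4 CPM in control 1 to 5. The groups overlapped fully for Tgm1 (ENSMUSG00000022218, chr14:55700009-55713926, minus strand), and its log2 fold change against control was 0.11 (SE 0.20, adjusted p = 0.787), or -0.056 when library totals alone set the scale. Tgm2 held 56.1, 52.95 and 62.6 CPM in VDRgem 1, 2 and 3, against 31.1, 49.5, 49.2, 49.7 and 41.1 CPM in VDR-null 1 to 5 and 46.4, 44.96, 47.8, 49.2 and 50.8 CPM in control 1 to 5. Tgm2 encodes tissue transglutaminase, and its 3 VDRgem libraries lay above every control by a small margin after TMM scaling. On library totals alone VDRgem 1 and 2 were below control 5. The log2 fold change of Tgm2 was 0.26 (SE 0.13, edgeR adjusted p = 0.244). Part of Tgm2 overlaps another annotated gene (18.7% of its windows), so its level is uncertain. Tgm3 held 64.1, 10.5 and 2.68 CPM in VDRgem 1, 2 and 3, against 1.42, 2.47, 22.6, 4.56 and 6.31 CPM in VDR-null 1 to 5 and 1.23, 0.426, 0.862, 1.60 and 0.819 CPM in control 1 to 5. Tgm3 (ENSMUSG00000027401, chr2:130012349-130050399, plus strand) encodes the epidermal enzyme that cross-links loricrin and proline-rich proteins. All VDRgem libraries lay above every control, as did 4 of the 5 VDR-null libraries. Its log2 fold change was 4.67 (SE 0.96, adjusted p = 0.0148) in VDRgem, and 2.68 with an adjusted p of 0.126 without VDRgem 1. Tgm5, another epidermal transglutaminase, held 3.32, 1.03 and 0.0732 CPM in VDRgem 1, 2 and 3, at most 0.0388 CPM in VDR-null and at most 0.358 CPM in control, and was fitted at 3.94 (SE 1.04), a description because it entered only with the help of VDRgem libraries. Without VDRgem 1 this was 2.47, and without control 4 it could not be tested. Tgm4 lay at 0.396 to 0.537 CPM in VDRgem, 0.283 to 0.407 CPM in VDR-null and 0.274 to 0.581 CPM in control, and 22.0% of its windows fall in an overlapping gene.

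Desmosomal cadherins, whose 9 genes lie together on chromosome 18, divided by member. Dsg3 held 188, 69.2 and 21.4 CPM in VDRgem 1, 2 and 3, against 6.89, 9.83, 16.4, 24.3 and 9.21 CPM in VDR-null 1 to 5 and 11.9, 8.14, 11.3, 16.5 and 12.3 CPM in control 1 to 5. Dsg3 encodes desmoglein 3, the adhesion protein of basal and oral keratinocytes, and all 3 of its VDRgem values were above every control. Dsc2 held 359.6, 153 and 45.9 CPM in VDRgem 1, 2 and 3, against 33.7, 23.4, 20.4, 46.2 and 15.1 CPM in VDR-null 1 to 5 and 24.6, 24.6, 32.95, 34.4 and 32.5 CPM in control 1 to 5. Dsg1a held 212, 81.5 and 18.1 CPM in VDRgem 1, 2 and 3, against 14.7, 9.53, 6.99, 19.7 and 6.38 CPM in VDR-null 1 to 5 and 9.90, 9.70, 17.6, 14.2 and 14.7 CPM in control 1 to 5. Dsc2 and Dsg1a, a desmocollin of many epithelia and a desmoglein of upper epidermal layers, also had all VDRgem libraries above all controls. On library totals alone Dsg1a lost that order, with VDRgem 3 below control 3. In Dsg3, Dsc2 and Dsg1a VDR-null 4 lay above VDRgem 3. Dsg2 held 113, 64.9 and 63.999 CPM in VDRgem 1, 2 and 3, against 85.99, 60.9, 87.2, 89.7 and 46.2 CPM in VDR-null 1 to 5 and 62.6, 70.9, 85.3, 62.7 and 90.2 CPM in control 1 to 5. Dsg2 encodes the desmoglein of simple epithelia and heart, and its 3 groups overlapped, though VDRgem 1 was the highest library. Dsc3 held 220.3, 144 and 145 CPM in VDRgem 1, 2 and 3, against 175, 97.1, 132, 189.5 and 98.5 CPM in VDR-null 1 to 5 and 91.8, 123, 159, 117 and 167 CPM in control 1 to 5. Dsc3, a desmocollin of basal layers, had VDRgem 1 above every control and VDRgem 2 and 3 inside the control range. The log2 fold changes against control were 2.94 (SE 0.52, adjusted p = 0.00982) for Dsg3, 2.64 (SE 0.47, adjusted p = 0.00982) for Dsc2, 2.96 (SE 0.55, adjusted p = 0.0106) for Dsg1a and 6.46 (SE 1.22, adjusted p = 0.0110) for Dsc1, the desmocollin of upper layers. Dsc1 held 57.9, 21.8 and 0.0732 CPM in VDRgem 1, 2 and 3, against 0.115, 0.0358, 0.242, 0.0776 and 0.229 CPM in VDR-null 1 to 5 and 0.0323, 0.284, 0.0756, 0.990 and 0.112 CPM in control 1 to 5. VDRgem 1 and 2 stood above every other library for Dsc1, and VDRgem 3 lay inside the control range. Dsg1b rose by 2.46 (SE 0.64, adjusted p = 0.0320), with 48.9% of its windows and 35.0% of those of Dsg1a found in another gene. Dsc3 was at 0.37 (SE 0.25, adjusted p = 0.400) and Dsg2 at 0.12 (SE 0.23, adjusted p = 0.812), which was -0.064 with library totals alone. Without VDRgem 1 the 5 called cadherins stood at 1.29 to 5.16 with edgeR adjusted p of 0.0689 to 0.318, and Dsg2 at -0.22. The Dsg1b call was also lost without control 1, 2, 4 or 5, at up to 0.0743.

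The makeup of the cadherin pool was also described as shares. Taken per kilobase within each library, Dsg2 made up 15.2%, 21.7% and 51.3% of desmoglein transcripts in VDRgem 1, 2 and 3, 56.0% to 72.5% in VDR-null and 57.8% to 70.2% in control. All 3 VDRgem shares were below those of every VDR-null and control library. Dsg1a took 21.1% to 41.4% in VDRgem, 8.45% to 17.9% in VDR-null and 13.96% to 19.1% in control, and Dsg3 took 20.4% to 29.9%, 6.36% to 17.9% and 9.54% to 17.99% in those groups. Among desmocollins, Dsc3 made up 33.9%, 44.4% and 75.5% in VDRgem 1, 2 and 3, 80.0% to 86.2% in VDR-null and 76.4% to 83.3% in control. Dsc2 took most of the rest, at 24.4% to 56.6% in VDRgem, 13.5% to 19.98% in VDR-null and 16.6% to 22.9% in control. Shares within a library are unaffected by its scaling, and VDRgem 3, whose summed cadherin level was inside the control range, lay outside the control range in the shares of Dsg2 and Dsc3. That is a description of 3 libraries, with no test.

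**Figure D5:**
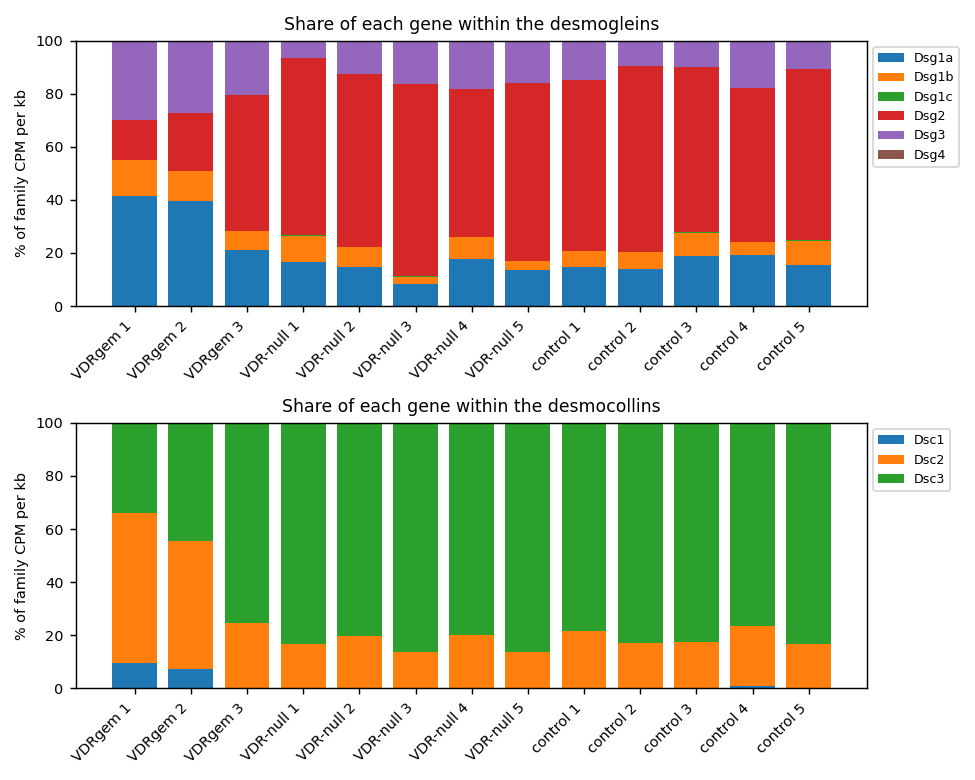
Share of each desmoglein (upper panel) and each desmocollin (lower panel) in the summed per-kilobase level of its family, in percent, as stacked bars from 0 for the 13 libraries (VDRgem, VDR-null, control). Dsg2 and Dsc3 fill most of each bar in VDR-null and control, and least in VDRgem 1.

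In the plaque, 4 of 6 genes rose in VDRgem. Dsp held 1584, 667 and 325 CPM in VDRgem 1, 2 and 3, against 284, 193, 229, 398 and 161 CPM in VDR-null 1 to 5 and 208, 280.0, 331, 247 and 374 CPM in control 1 to 5. Dsp (ENSMUSG00000054889, chr13:38151294-38198577, plus strand) encodes desmoplakin, and VDRgem 3 lay within its control range. Jup held 581.1, 249.7 and 125.2 CPM in VDRgem 1, 2 and 3, against 75.9, 82.7, 106.7, 108.6 and 73.1 CPM in VDR-null 1 to 5 and 109.0, 114.5, 115.9, 117.5 and 114.1 CPM in control 1 to 5. Jup (ENSMUSG00000001552, chr11:100368958-100397763, minus strand) encodes plakoglobin, and its controls lay close together after TMM scaling. On that scale every VDRgem library was above them and every VDR-null library below, an order that library totals alone did not keep. Pkp1 held 901, 357 and 155 CPM in VDRgem 1, 2 and 3, against 155, 121, 107, 198 and 58.7 CPM in VDR-null 1 to 5 and 89.6, 150.3, 205, 106 and 197 CPM in control 1 to 5. Pkp3 held 171, 61.5 and 23.3 CPM in VDRgem 1, 2 and 3, against 20.9, 19.7, 26.3, 30.7 and 12.9 CPM in VDR-null 1 to 5 and 24.3, 32.7, 38.3, 26.5 and 31.3 CPM in control 1 to 5. Pkp1 and Pkp3 are plakophilins of stratified epithelia, and VDRgem 3 lay inside the control range for Pkp1 and below every control for Pkp3. Pkp4 held 136, 142 and 152 CPM in VDRgem 1, 2 and 3, against 185, 141, 152, 177 and 151 CPM in VDR-null 1 to 5 and 167, 168, 145, 177 and 175 CPM in control 1 to 5. Pkp4, a plakophilin relative also found at other junctions, overlapped between all groups. The log2 fold changes against control were 1.48 (SE 0.32, adjusted p = 0.0175) for Jup, 1.57 (SE 0.39, adjusted p = 0.0266) for Dsp, 1.65 (SE 0.46, adjusted p = 0.0414) for Pkp1, 1.48 (SE 0.43, adjusted p = 0.0494) for Pkp3 and -0.21 (SE 0.10, adjusted p = 0.203) for Pkp4. Pkp2, a plakophilin of simple epithelia and heart, was at 0.37 (SE 0.32, adjusted p = 0.529), with at most 1.36 CPM in any library. Without VDRgem 1 the 4 called genes stood at 0.45 to 0.77 with edgeR adjusted p of 0.118 to 0.553. Dsp missed the threshold without control 1, 2 or 4, and Pkp1 and Pkp3 without VDRgem 2 or any single control, at adjusted p of up to 0.104. Pkp3 did so without VDR-null 1, 2, 3 or 4 as well, at up to 0.0585.

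VDR-null was compared with control to ask which transcripts differ when the receptor is missing. Of the 32 tested members, 0 were higher and 0 lower in edgeR's quasi-likelihood test, where 0.678% of all genes were higher and 0.656% lower. At an unadjusted p under 0.05 there were 6. DESeq2 called 1 higher, Tgm3, and 3 lower, Cnfn, Sprr1a and Sprr3, with 8 at an unadjusted p under 0.05. With limma-voom 0 were called, with 0 at that level. Of all 17837 genes, DESeq2 called 1647 and limma-voom 248 in either direction. The unadjusted rule took 1 higher and 5 lower, where 13.2% of all genes passed it. The fitted log2 fold change was negative for 28 of 32, with a median of -0.42 against 0.01 for all genes tested. The control libraries enter this comparison as well as that of VDRgem. Sprr3 was at -4.14 (SE 1.36, adjusted p = 0.1002), Sprr1a at -3.77 (SE 1.32, adjusted p = 0.116), Cnfn at -5.19 (SE 1.72, adjusted p = 0.101) and Lor at -2.51 (SE 1.27, adjusted p = 0.254). DESeq2's adjusted p was 0.0167 for Sprr3, 0.0474 for Sprr1a and 0.0399 for Cnfn, each the lowest over the settings tried, whose highest adjusted p were 0.551, 0.533 and 0.627 for these genes in the same order. Without control 4, the control with the highest keratinocyte markers, the edgeR values were -2.45 for Sprr3 (adjusted p = 0.322), -2.69 for Sprr1a (0.306) and -3.94 for Cnfn (0.260). Jup was the 1 member with every VDR-null library below every control after TMM scaling, where 3.18% of all genes tested had that order. On library totals alone Jup lost it, with VDR-null 4 above control 1. The log2 fold change of Jup was -0.35 (SE 0.28, edgeR adjusted p = 0.482).

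The fitted value of Tgm3 was positive in VDR-null, and it passed in some fits. Its level of 22.6 CPM in VDR-null 3 was the highest outside VDRgem 1, and the lowest VDR-null value, 1.42 CPM in VDR-null 1, lay below the highest control, 1.60 CPM. The log2 fold change was 2.85 (SE 0.88, adjusted p = 0.0853), and DESeq2 gave 2.91 with an adjusted p of 0.0140. With edgeR the adjusted p was 0.0442 without VDRgem 1 and 0.0409 when VDR-null and control alone were fitted, and over all 24 settings it ran from 0.0140 to 0.378, the highest with limma-voom. Without VDR-null 3 the log2 fold change was 1.86 with an adjusted p of 0.153. The summed skeletal muscle markers were 2.81, 7.33, 567, 19.6 and 54.0 CPM in VDR-null 1 to 5, so these libraries had the same order in muscle markers as in Tgm3, and the part of muscle in it was not tested. The keratinocyte markers did not share that order, at 70.4, 110, 117, 176 and 71.5 CPM in VDR-null 1 to 5. Within VDRgem, both marker sums took the same order as Tgm3. In controls the keratinocyte markers took the order of Tgm3, and the muscle markers did not. Muscle markers were highest there in control 3, at 23.3 CPM, where Tgm3 was at 0.862 CPM. VDRgem 3 held 23.2 CPM of muscle markers and 2.68 CPM of Tgm3. The part of keratinocytes in Tgm3 was not tested either.

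VDRgem was also set directly against VDR-null, since both alter the same receptor. Of the 32 tested members, 24 were higher and 0 lower in VDRgem with edgeR, where 10.6% of all genes were higher and 8.18% lower, and 17 were higher among the 25 that met the filter outside VDRgem. DESeq2 called 25 higher and limma-voom 11, with 0 lower in both. A fit of VDRgem and VDR-null alone called 11 of 25 tested, and a filter on control libraries alone left 16 of 24 higher. Of all genes, DESeq2 called 4283 and limma-voom 3145 of 17837 in either direction. The fit of those groups alone called 753 of 17531 genes, and the filter on control libraries 3220 of 16881. The median log2 fold change was 2.77, against -0.02 for all genes tested. The unadjusted rule took 25 higher and 0 lower, where 27.5% of all genes passed it. For 12 of 32 every VDRgem library lay above every VDR-null library, where 9.17% of all genes tested had that order. These included Lce3a, Lce3c, Lce3e, Lce3f and Tgm5, which entered only with the help of VDRgem libraries, so the count is a description. The others were Cnfn, Jup, Lor, Sbsn, Sprr1a, Sprr3 and Tgm2, of which Tgm2 lost the order on library totals alone. Precursors and plakins passed in 7 of 7, Hrnr included, Lce3 genes, which entered only with the help of VDRgem libraries, in 5 of 5, Sprr genes in 2 of 2, cadherins in 5 of 7, plaque genes in 4 of 6 and transglutaminases in 1 of 5, which was Tgm5. Lor stood at 8.06 (SE 1.35, adjusted p = 0.00344), Sprr3 at 8.38 (SE 1.47, adjusted p = 0.00433), Cnfn at 9.13 (SE 1.73, adjusted p = 0.00584), Sbsn at 4.13 (SE 0.63, adjusted p = 0.00253), Evpl at 2.198 (SE 0.52, adjusted p = 0.0135) and Ppl at 2.31 (SE 0.63, adjusted p = 0.0241). Jup stood at 1.83 (SE 0.32, adjusted p = 0.00421) and Dsp at 1.76 (SE 0.39, adjusted p = 0.0108). Tgm1 was at -0.06 (SE 0.20, adjusted p = 0.866), Tgm3 at 1.82 (SE 0.86, adjusted p = 0.150) and Pkp4 at -0.17 (SE 0.10, adjusted p = 0.241). Without VDRgem 1, 10 members passed, Cnfn, Dsc1, Dsc2, Dsg1a, Hrnr, Jup, Lor, Sbsn, Sprr1a and Sprr3, at which setting Lor was 5.13 (adjusted p = 0.0201), Sprr3 5.73 (0.0281), Cnfn 6.73 (0.0424), Sbsn 2.67 (0.0108), Jup 1.06 (0.0180), Evpl 1.01 (adjusted p = 0.175), Ppl 1.03 (0.298) and Dsp 0.96 (0.104). Of all genes in the fit without VDRgem 1, 434 of 18137 were called in either direction, against 3346 of 17837 with all libraries. Calls thus fell over the whole table and not in the members alone. Hrnr, 1 of those 10 members, entered only with the help of VDRgem libraries, so its place there is a description. Without VDRgem 1 and 2 together, which leaves VDRgem 3 alone, the members' median was 0.48. All 24 passed whichever single VDR-null library was left out, and 23 whichever single control was left out, since Tgm5 could not be tested without control 4. Without VDRgem 1 Tgm3 was -0.16, and without VDR-null 3 it was 2.81 with an adjusted p of 0.0248.

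Genes that work with the envelope and the desmosome were read out from lists outside the members, to be read against the 4.8% of all genes that were higher and the 3.82% that were lower in VDRgem than in control. Without VDRgem 1, 66 of 18137 genes were called in that comparison in either direction. Counts of 0 in that fit are near that share and do not single out a list. Of 18 cornification enzymes and barrier lipid genes, 13 were higher and 0 lower in VDRgem than in control, and their median log2 fold change was 3.59, while 0 passed without VDRgem 1. Spink5, an inhibitor of epidermal proteases, was at 5.57 (SE 1.03, adjusted p = 0.0107), Calml3, a calmodulin-like protein of keratinocytes, at 5.10 (SE 0.94, adjusted p = 0.0106) and Serpinb12, a serpin of cornified epithelia, at 6.07 (SE 1.06, adjusted p = 0.00982). Of 7 tested of 10 other genes of the epidermal differentiation complex, 4 were higher and 0 lower (median 0.87), with Rptn, an envelope precursor, at 6.24 (SE 1.37, adjusted p = 0.0181), S100a14, a calcium-binding protein, at 2.82 (SE 0.61, adjusted p = 0.0175), and 0 passing without VDRgem 1. Of 12 keratinocyte transcription factors, 1 was higher and 0 lower (median 0.52), Grhl1, at 2.23 (SE 0.44, adjusted p = 0.0130), and 0 without VDRgem 1. The keratinocyte marker list had 11 of 12 higher (median 5.20), and 4 of 12 without VDRgem 1, and it shares Calml3 and Klk7 with the enzyme list.

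Genes of other cell junctions were read out in the same way. Of 11 adherens junction genes, 1 was higher and 0 lower in VDRgem than in control (median 0.07), near the share of all genes. Pard3, a polarity protein, was at 0.31 (SE 0.08, adjusted p = 0.0333), and Cdh1, E-cadherin, at 0.06 (SE 0.35, adjusted p = 0.940). Of 6 hemidesmosome genes, which anchor epithelium to its basement membrane, 0 were called by edgeR, with 4 at an unadjusted p under 0.05 (median 0.30). Without VDRgem 1, 0 adherens and 0 hemidesmosome genes passed, where 66 of 18137 genes were called in either direction. No test of the difference between these lists and the desmosome was made. Among 7 desmosome-associated genes outside the members, 3 were higher and 2 lower. Krt14, a keratin of basal cells, was at 2.03 (SE 0.43, adjusted p = 0.0168), and the keratins of simple epithelia Krt8 and Krt18 were at -1.89 (SE 0.34, adjusted p = 0.00982) and -2.44 (SE 0.62, adjusted p = 0.0290). Krt8 averaged 1.95 ± 0.443 CPM in VDRgem (SD, n = 3) and 7.14 ± 1.70 CPM in control (SD, n = 5). Krt5 and Perp were the other 2 that rose. Of the 7, 0 passed without VDRgem 1, a count near the share of all genes in that fit.

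These lists and the marker lists held 102 genes, all tested except some of the 10 other complex genes, of which 7 were tested. Between VDR-null and control, 0 of them passed with edgeR, with 21 at an unadjusted p under 0.05. With the further demand of an absolute log2 fold change over 0.3, 13.2% of all genes met that p. In VDRgem against VDR-null, 14 of 18 enzyme and lipid genes, 4 of 12 transcription factors, 4 of 7 other complex genes, 4 of 7 desmosome-associated genes, 1 of 6 hemidesmosome genes and 12 of 12 keratinocyte markers were higher, where 10.6% of all genes were. Adherens junction genes had 1 of 11 higher and 1 of 11 lower there, where 8.18% of all genes were lower, and 1 of 6 or 1 of 11 is near what all genes gave. Without VDRgem 1, 6 enzyme and lipid genes, 0 transcription factors, 2 other complex genes and 1 desmosome-associated gene were higher. Hemidesmosome genes gave 0 higher and keratinocyte markers 9, and 0 adherens junction genes were called. In that fit 434 of 18137 genes were called in either direction. Of the 6 muscle markers 1 was higher in VDRgem than in control and 0 in VDR-null than in control, and bone markers gave 0 of 3 in all 3 comparisons. Neutrophil markers gave 0 of 4, and endothelial markers 1 of 3 higher in VDRgem than in control. In VDRgem against control, general epithelial markers were higher in 2 of 5 (Krt5 and Krt14), ameloblast markers in 1 of 7 with 1 lower, and odontoblast markers in 0 of 5 with 1 lower. Of these muscle, endothelial, general epithelial, ameloblast and odontoblast markers, 0 passed in that comparison without VDRgem 1. Of all 18137 genes in that fit, 66 were called in either direction.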

How the data were processed

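Poly-A RNA of 13 lower incisors was sequenced from stranded libraries, per the labels' protocols. The authors deposited 1 table of whole-number counts per Ensembl gene, not normalized, and the submitters' processing notes name HTSeq 0.6.1p1, STAR 2.5.3a, bcl2fastq 2.20.0.422 and the build mm10. Which annotation, counting mode and strand setting they used was not given in the sources used here, so reads of a gene and an antisense partner may not have been told apart, and genes that share sequence may have exchanged or lost reads. Symbols, coordinates and exon lengths came from GENCODE M21 on GRCm38 (34618 of 34709 genes named). No label gives a sequencing batch or date. No library was a copy of another (smallest chi-square per degree of freedom within a group 16.5).

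The main test was that of edgeR 4.0.16 under R 4.3.3 (quasi-likelihood, TMM scaling, filterByExpr with a minimum count of 10, 1 mean per group over all 13 libraries, no covariate, Benjamini-Hochberg adjustment over 17837 genes, threshold 0.05). Fold changes are from the fit, and levels are CPM after TMM. Alternatives were DESeq2 1.42.0, limma-voom 3.58.1, relative log expression size factors, library totals alone, other or no low-count filters, robust dispersion, only the groups compared, the unadjusted rule stated with the series (absolute log2 fold change over 0.3) and leaving out libraries. A floor is 3 counts over the whole group, and it covers counting error only. The test was tried on simulated data with known changes. Plots were made in Python 3.11.15 with matplotlib 3.10.9.

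The members, the companion and marker lists and the rule for naming genes were chosen with earlier results of these data known. Values in every library were given for up to 5 members per role with the highest mean level, members with a mean of at least 1 CPM in a group or called in a comparison could be named, and up to 3 genes of smallest p were named per companion list. Ivl, Pkp2, Krt5, Perp, Sprr2d and Sprr2f were named outside that rule after their values were seen, as were members listed from short counts. Shared sequence was checked as 50-base windows of a gene's exons found in another gene.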

Additional observations from a re-analysis of the deposited data

Results flagged for a closer look

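Among 64 sets of libraries, a tested member in VDR-null or control, 5 held a library whose gap to its nearest neighbour exceeded Dixon's critical value of 0.71 as a part of the group's range, both taken on the log2(CPM + 0.1) scale. Chance gives about 1 in 20 for normally distributed values. A set with counts in 1 library alone always gives a gap of the whole range, as for Tgm5 and Lce3c in VDR-null, so that rate does not apply to it. Pkp4 stood at 145 CPM in control 3 and at 167 to 177 CPM in the other controls (gap 0.716 of the range on that scale). Tgm5 stood at 0.358 CPM in control 4 and at 0 to 0.0453 CPM in the other controls (0.754), and control 4 was also the control with the highest keratinocyte markers. The other cases were low counts in VDR-null, in members that entered the test only with the help of VDRgem libraries. Tgm5 was at 0.0388 CPM in VDR-null 4 and 0 in the others (1), Lce3c at 0.0509 CPM in VDR-null 5 and 0 in the others (1), and Lce3b at 0.155 CPM in VDR-null 4 and 0 to 0.0254 CPM in the others (0.758).

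After TMM scaling, Jup lay above every control in all 3 VDRgem libraries and below every control in all 5 VDR-null libraries. The order depended on that scaling, as VDR-null 4 stood at 108.6 CPM and control 1 at 109.0 CPM. Set against library totals alone, VDR-null 4 (5598 of 49489319 counts) was above control 1 (3378 of 30277454). On that scale VDRgem 3 (10257 of 87783466) was below control 4 (5576 of 45924852). The difference between VDRgem and VDR-null was a log2 fold change of 1.83 (edgeR adjusted p = 0.00421), and 1.06 without VDRgem 1.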

How the results depend on the processing

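Members higher in VDRgem than in control numbered 21, and 3 with limma-voom, 14 with robust dispersion and 14 with only the groups compared. They numbered 14 of 24 tested with a filter on control libraries alone, 41 without a low-count filter and 0 to 41 when 1 library was left out. Genes called in either direction in that comparison were 981 with limma-voom and 1459 with robust dispersion, of 17837. They were 1972 of 17616 with only the groups compared and 1440 of 16881 with the filter on control libraries alone. Without a low-count filter they were 1469 of 33566, without VDRgem 1 66 of 18137 and without VDRgem 3 2021 of 18266. The members' median of 2.95 was 1.80 with the filter on control libraries alone and -0.047 without VDRgem 1 and 2. Against VDR-null the count of 24 was 11 with limma-voom and 11 of 25 tested with only the groups compared. It was 16 of 24 with the filter on control libraries alone, 42 without a filter and 10 to 41 with 1 library left out. Genes called in either direction in that comparison were 2749 of 33566 without a filter. They were 434 of 18137 without VDRgem 1, which gave the 10, and 4610 of 18266 without VDRgem 3, which gave the 41. That median of 2.77 was 2.08 with the filter on control libraries alone, 5.33 with a minimum mean of 1 CPM, 6.43 without a filter and 0.48 without VDRgem 1 and 2, and 1.79 to 7.80 with 1 library left out. The no-filter, 1 CPM and without-VDRgem 3 settings test other members, 60, 34 and 49 of them. Most of those added without VDRgem 3 entered through VDRgem 1 and 2 alone. In VDR-null against control, the counts of 0 became 1 higher with DESeq2, only the groups compared, the unadjusted rule and without VDRgem 1 and 2, 0 to 1 with 1 library left out, and 3 lower with DESeq2 and 5 with the unadjusted rule. That median of -0.42 was -0.80 without a filter and -0.82 to -0.31 with 1 library left out. The number of members with at least 1 CPM in control was 19 to 22 with 1 library left out.

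Signs turned in single members. Without VDRgem 1 and 2 together the log2 fold changes against control were -1.02 for Cnfn, -2.01 for Dsc1, -0.23 for Dsg2, -0.52 for Evpl, -5.48 for Hrnr, -1.08 for Lce3a, -0.40 for Lce3b, -1.05 for Lce3c, -0.50 for Lce3e, -0.19 for Lce3f, -0.99 for Lor, -0.41 for Pkp3, -0.18 for Ppl and -0.35 for Tgm5. Against VDR-null they were -0.80 for Dsc1, -2.92 for Hrnr and -1.45 for Tgm3. Without VDRgem 1, Dsg2 was -0.22 against control and Tgm3 -0.16 against VDR-null, and over all fits that left out 1 library these ran from -0.22 to 0.26 and from -0.16 to 2.81. Library totals alone gave -0.064 for Dsg2 and -0.056 for Tgm1 against control, and moved the median of all genes by -0.168. A lone VDRgem library is assumed to vary like the other groups, and the cause of these changes was not tested. The companion lists without VDRgem 1, and without VDRgem 1 and 2, were added after seeing the data. No paired analysis was possible because the labels give no replicate number that groups share. With 3 VDRgem libraries that differ this much, group means of VDRgem carry large errors, and members with few counts in 20405188 to 87783466 per library are not resolved below about 3 counts.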
